A study of Mus musculus with 2 samples.

Results

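Pheochromocytoma and paraganglioma are tumours of the chromaffin cells of the adrenal medulla and of related paraganglia. In the adrenal gland of the mouse, 10 of the genes whose inherited loss is known to predispose to them were followed. They are the complex II subunit genes Sdha, Sdhb, Sdhc and Sdhd, the assembly factor gene Sdhaf2, and Fh1, Vhl, Max, Tmem127 and Nf1, and they were chosen by name, not by their values, as 10 of the 55536 annotated genes in the tables. The study holds 1 group of 2 bulk RNA libraries of whole adrenal gland from adult male mice of a 5xFAD by CAST cross, between 8 and 10 months old and obtained from The Jackson Laboratory. The 5xFAD line is a transgenic model of Alzheimer disease whose transgenes are driven by the neuron-directed Thy1 promoter, and CAST is a wild-derived strain. The labels do not say whether these mice carried the transgenes, and no treatment and no control genotype were included. They give the libraries separate biosamples but the same donor entry, and nothing states that they came from separate animals, so the spread between them may be technical. With 1 group there is no comparison between conditions and no test, and each value is given per library with its standard deviation (SD, n = 2).

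Complex II, or succinate dehydrogenase, is the enzyme of the citric acid cycle that also feeds electrons into the respiratory chain. SDHA and SDHB form its catalytic part, SDHC and SDHD anchor it in the inner mitochondrial membrane, and SDHAF2 attaches the flavin cofactor to SDHA. Fumarase, the product of Fh1, acts on the fumarate that complex II makes. VHL is the substrate receptor of the ubiquitin ligase that marks hypoxia-inducible factors for destruction, MAX is the obligate partner of MYC, TMEM127 is a membrane protein of endosomes and lysosomes that restrains mTORC1, and neurofibromin, the product of Nf1, turns RAS off.

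Several of these genes are spliced in more than 1 way, and the sequences of 5 alternative coding exons, to which the results below refer, were read from the GENCODE M21 transcripts of build mm10. Capitals mark the coding bases of the alternative exon and lower case marks 15 coding bases of the neighbouring exons, 5′ to 3′ along the transcript. The 27-base exon of Max lies at chr12:76961263-76961289 on the minus strand and separates the known long and short forms of MAX. In Nf1, on the plus strand, a 63-base exon at chr11:79463233-79463295 is the known insertion in the domain that acts on RAS, and a 30-base exon at chr11:79414241-79414270 has been described as enriched in neurons. The 102-base exon of Sdhc lies at chr1:171143558-171143659 on the minus strand and keeps the reading frame. The 110-base exon of Sdhaf2 lies at chr19:10520949-10521058 on the minus strand, its length is not a multiple of 3, and it holds the annotated stop codon of the transcript Sdhaf2-206, so only its 90 coding bases are shown.
Max 27-base exon: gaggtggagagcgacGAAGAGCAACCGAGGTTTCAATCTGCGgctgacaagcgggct
Nf1 63-base exon: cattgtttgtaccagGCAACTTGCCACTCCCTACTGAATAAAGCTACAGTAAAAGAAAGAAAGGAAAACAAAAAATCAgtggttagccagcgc
Nf1 30-base exon: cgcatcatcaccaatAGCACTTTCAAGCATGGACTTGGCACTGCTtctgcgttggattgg
Sdhc 102-base exon: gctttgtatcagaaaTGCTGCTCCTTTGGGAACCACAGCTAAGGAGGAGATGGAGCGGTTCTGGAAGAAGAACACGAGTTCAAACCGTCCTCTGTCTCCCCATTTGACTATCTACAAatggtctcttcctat
Sdhaf2 110-base exon, coding part: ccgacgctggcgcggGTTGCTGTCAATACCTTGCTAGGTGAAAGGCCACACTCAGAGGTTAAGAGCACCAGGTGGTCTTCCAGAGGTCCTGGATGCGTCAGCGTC

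The libraries held 29204618 and 26322446 counts over annotated genes in replicates 1 and 2. Cortical markers led the tissue, with a summed level of 14980 and 15171 TPM (a level scaled to transcript length and to the total of the library) over 6 genes such as Star and Cyp11b1. The 7 chromaffin markers, among them Th and Pnmt, were all detected and summed to 2005 and 2318 TPM. All 6 adipocyte markers were lower in replicate 2 by 0.32 or more on the log2 scale, from a summed 701 to 419 TPM. In bulk tissue fewer cells of a type and less RNA per cell cannot be told apart, and the levels below are averages over cortex, medulla and the other cells of the gland.

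All 10 genes reached 1 TPM in each library, the limit used for detection, against 56.3% of the 21951 annotated protein-coding genes. Their median level was 32.0 TPM in replicate 1 and 33.0 TPM in replicate 2, against a median of 12.4 TPM over the 12366 detected protein-coding genes. The range ran from 10.1 TPM for Vhl to 147 TPM for Sdha, and 9 of the 10 genes lay above that median. In the gene table no values of genes next to each other in the order overlapped, although Nf1 and Tmem127 were nearly equal in replicate 1, at 29.77 and 29.74 TPM, and their means differed by about the SD of Tmem127.

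**Figure D1:**
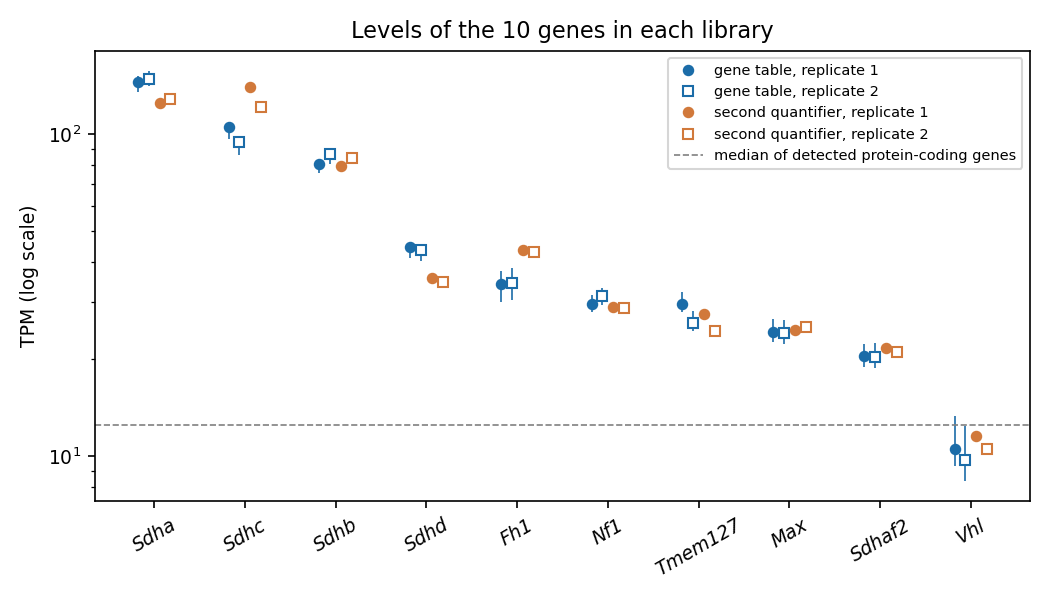
TPM on a log axis for each of the 10 genes, in order of their mean in the gene table, with replicate 1 as filled circles and replicate 2 as open squares. Blue points are the gene table with its deposited intervals and orange points the second quantifier; Sdha leads at 145 and 148 TPM in the gene table, and Vhl alone lies below the dashed line at 12.4 TPM, the median of detected protein-coding genes.

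Among the complex II subunits Sdha, the flavoprotein, stood highest at 145 TPM in replicate 1 and 148 TPM in replicate 2 (147 ± 2.23, SD, n = 2), above 97.7% of detected protein-coding genes. Sdhc, a membrane anchor, followed at 105 and 94.7 TPM (99.9 ± 7.33), and Sdhb, the iron-sulfur subunit, at 80.5 and 86.6 TPM (83.5 ± 4.25). The other anchor, Sdhd, was lowest of the subunits at 44.6 and 43.8 TPM (44.2 ± 0.608). The libraries gave the same order, and no values of neighbouring subunits overlapped. Most of the TPM came from 1 coding transcript for Sdha (Sdha-201, 85.5% and 89.2%) and Sdhb (Sdhb-201, 94.2% and 96.2%), and all of it for Sdhd (Sdhd-201). Although the subunits are present in equal numbers in the complex, their transcripts were not equally abundant. Sdha exceeded Sdhd 3.32 ± 0.0963 times, Sdhb 1.76 ± 0.0627 times and Sdhc 1.47 ± 0.131 times in TPM (SD, n = 2).

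The place of Sdhc depended on how its transcripts were quantified. A second deposited table, estimated directly from the reads and summed per gene here, put Sdhc at 140 and 121 TPM and Sdha at 125 and 128 TPM, so that their ranges overlapped and their order differed between the libraries. Sdhc was 1.31 times higher in that table than in the gene table, averaged over libraries, and Sdhd, with a single annotated transcript, was at 0.796 times its gene-table level. For Sdhc the leading transcript also changed. Sdhc-201, which skips the 102-base exon, took 55.4% and 55.1% of the TPM of Sdhc in the transcript table of the gene pipeline, but 41.2% and 40.4% in the second table. There Sdhc-203, a 298-base model that is incomplete at its 3′ end, led with 53.2% in each library, against 36.2% and 36.1% in the first. In replicate 1 this short transcript was assigned 215 counts over an effective length of 198 bases in the first table and 249.7 counts over 88.9 bases in the second, and TPM divides by that length. The long form Sdhc-202 held 8.48% and 8.81% in the first table.

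Sdhaf2 was transcribed at 20.4 and 20.3 TPM (20.4 ± 0.0990, SD, n = 2), above 67.4% of detected protein-coding genes. It was the least coding of the 10 genes. Transcripts annotated as protein-coding held 27.4% and 27.0% of its TPM in replicates 1 and 2, and 22.8% and 32.5% in the second table. It was the only one of the 10 below 50% in both libraries, a condition that 9.62% of detected protein-coding genes met, and the median coding share over those genes was 85.6% and 85.9%. The gene was led in both tables by Sdhaf2-206, annotated as a target of nonsense-mediated decay, the pathway that removes messages with early stop codons.

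Sdhaf2-206 stood at 7.05 TPM in replicate 1 and 10.1 TPM in replicate 2, with deposited intervals of 5.34 to 8.03 and 8.15 to 10.97 TPM. The retained-intron transcript Sdhaf2-204 went the other way, from 3.81 to 1.09 TPM, with intervals of 2.32 to 5.26 and 0.237 to 2.24. Neither pair of intervals overlapped, while the total for the gene was nearly the same in the libraries. This was not particular to Sdhaf2. Of the 31 transcripts of the 10 genes at 1 TPM or more in both libraries 5 had intervals that did not overlap. Over all 32474 such transcripts, not matched for counts, the share was 6.25%. The other 3 of the 5 were the leading transcripts Sdha-201, Sdhb-201 and Tmem127-201, with 9949, 2264 and 3816 counts in replicate 1. In the second table Sdhaf2-206 was at 8.56 and 9.71 TPM and Sdhaf2-204 at 1.99 and 0.815 TPM. Another decay target, Sdhaf2-203, held 13.8% and 13.6% of the gene in the first table and 0.510% and 8.27% in the second. Of the coding transcripts, Sdhaf2-208 took 11.1% and 13.9% and Sdhaf2-201 12.6% and 8.22%, and the noncoding Sdhaf2-209 reached 10.8% and 9.42% in the second table only. The 110-base exon with the stop codon, carried by Sdhaf2-206, was thus included in 36.1% and 52.1% of TPM in the first table and in 47.7% and 46.0% in the second. Inclusion here and below is the TPM share of annotated transcripts that hold the exon among those that span its place. It rests on estimated transcript levels, not on counted junction reads.

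**Figure D2:**
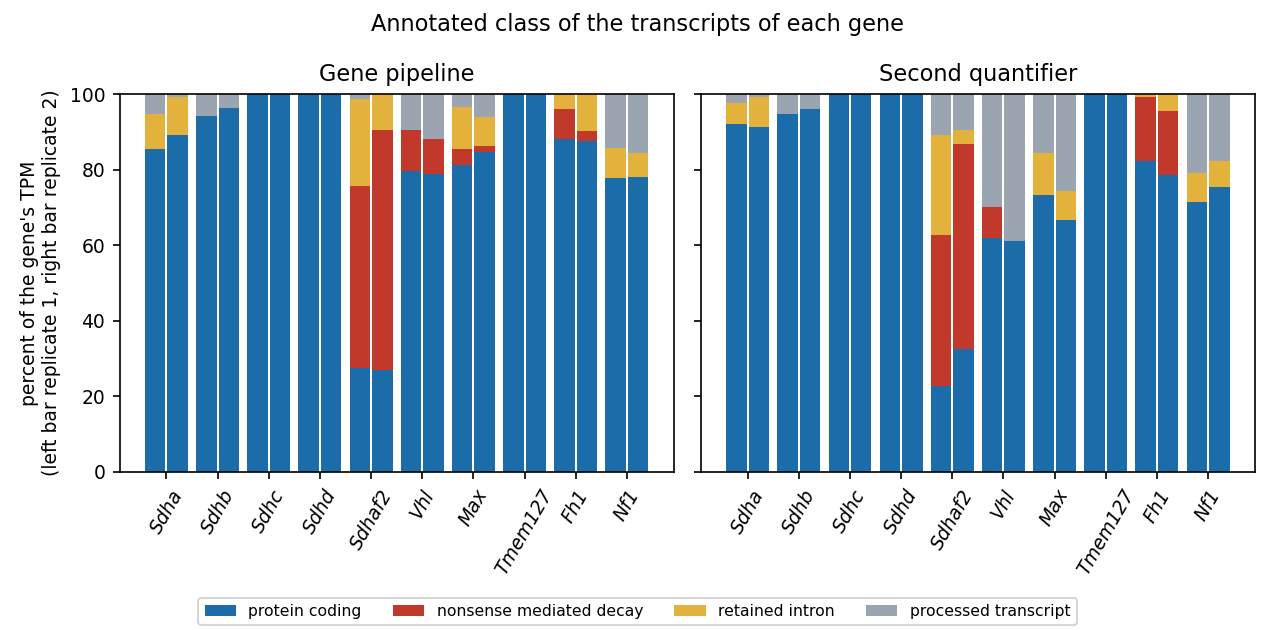
Share of each gene's TPM, in percent, by the annotated class of its transcripts, with replicate 1 as the left bar and replicate 2 as the right bar, in the transcript table of the gene pipeline and in the second quantifier. Sdhaf2 stands apart with 27.4% and 27.0% in coding transcripts in the first panel, whereas Sdhc, Sdhd and Tmem127 are at 100% in both panels.

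The remaining assembly factors of complex II were below Sdhaf2 in TPM summed over all transcripts. Sdhaf4, which acts on the flavinated SDHA subunit, reached 18.3 ± 2.09 TPM, Sdhaf1, needed to insert iron-sulfur clusters into SDHB, 5.62 ± 0.0849 TPM, and Sdhaf3, also an SDHB factor, 1.99 ± 0.0495 TPM (SD, n = 2). The coding transcripts of Sdhaf2 alone summed to 5.59 and 5.47 TPM, below the total of Sdhaf4 and close to that of Sdhaf1.

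Fh1 was at 34.3 and 34.5 TPM (34.4 ± 0.141), above 82.7% of detected protein-coding genes and below 3 of the complex II subunits by more than 2-fold. In the gene table it lay at the lower edge of the citric acid cycle. All 12 other cycle genes examined were detected, with a median of 72.8 ± 0.979 TPM, led by Ogdh at 121, Mdh2 at 102 and Idh3g at 97.2 TPM, and the lowest, Idh3a at 34.4 TPM, was level with Fh1. In the second table Fh1 rose above Sdhd, at 43.7 and 42.9 TPM. There it also lay above Idh3a, at 34.5 and 32.2 TPM, and slightly above Suclg2, at 43.2 and 40.9 TPM. Its leading transcript differed as well, being Fh1-201 with 61.7% and 60.8% in the first table and the 542-base Fh1-205, annotated as incomplete at its 5′ end, with 42.9% and 39.6% in the second. Fh1-204, a decay target, held 7.80% and 2.61% in the first table and 16.9% in both libraries in the second. A 204-base coding exon that Fh1-205 lacks was accordingly included at 70.0% and 69.4% against 47.9% and 49.6%.

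The 15 core genes of the other respiratory complexes and of ATP synthase were all detected at a median of 87.2 ± 3.71 TPM (SD, n = 2). Atp5b at 553 TPM, Cox4i1 at 310 TPM and Atp5a1 at 254 TPM were the highest and Uqcrfs1 at 60.9 TPM the lowest. Sdha, Sdhb and Sdhc lay inside the range of these genes, and Sdhd and Fh1 below it.

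Vhl had the lowest level of the 10 genes, at 10.5 and 9.68 TPM (10.1 ± 0.580), above 43.0% of detected protein-coding genes. Its value was about 2-fold under that of Sdhaf2, the next gene up. The coding transcript Vhl-201 held 79.5% and 78.8% of its TPM, but 97.6% and 96.9% of its counts, the other 3 transcripts being short. Of these, the decay target Vhl-204, 294 bases long, took 11.04% and 9.32% in the first table. In the second table the noncoding Vhl-202 took 24.2% and 28.6%, against 0% and 6.93% in the first.

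The partners of VHL in its ubiquitin ligase were all above it. Elob stood at 123 TPM, Rbx1 at 49.1, Eloc at 45.5 and the scaffold Cul2 at 15.7 TPM. Among 9 genes of the hypoxia-inducible factor system 8 were detected, and Epas1, which encodes HIF2A, was the highest at 66.1 and 69.7 TPM, followed by the prolyl hydroxylase gene Egln2 at 36.01 and Arnt at 29.5 TPM. The lowest detected was Hif3a at 2.08 TPM, and Egln3 was under the limit with 1.24 and 0.900 TPM. Of 16 known targets of these factors 13 were detected, led by Aldoa at 577, Vegfa at 249 and Pgk1 at 76.8 TPM and ending with Slc2a1 at 7.10 TPM. Car9, a target often used as a readout of VHL loss, was at 0.220 and 0.150 TPM, and Ankrd37 at 0.290 and 1.47 TPM was also below the limit, as was Egln3.

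Max was at 24.3 and 24.1 TPM (24.2 ± 0.0990, SD, n = 2), above 73.1% of detected protein-coding genes. The short form Max-201 led in both tables, with 16.0 and 14.6 TPM in the first. Max-202, which carries the 27-base exon shown above, was at 3.68 and 5.56 TPM, and the deposited intervals of its values overlapped. Inclusion of that exon was estimated at 18.7% and 27.5% in the first table and at 23.8% and 23.4% in the second, so the form without the exon was the more abundant in each library. The noncoding Max-204 held 0% and 3.02% of TPM in the first table and 12.4% and 22.1% in the second.

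Max exceeded most of the genes whose products join it or share its network. Of 12 such genes 10 were detected, with Mxd4, a MAX-bound repressor, at 43.8 TPM as the only gene above Max. Mga followed at 21.9 and Myc at 16.0 TPM, and the lowest detected was Mycn at 1.77 TPM. Mycl, at 0.220 and 0.490 TPM, and Mxd3, at 0.470 and 0.550 TPM, were under the limit.

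Tmem127 stood at 29.7 TPM in replicate 1 and 26.0 TPM in replicate 2 (27.9 ± 2.67), above 77.5% of detected protein-coding genes. All of its annotated transcripts are coding, and Tmem127-201 held 95.1% and 97.9% of its TPM. All 17 genes examined of mTORC1, the growth-controlling kinase complex, and of its lysosomal platform were detected, at a median of 25.6 ± 0.629 TPM. Tsc2, a brake on the complex, was the highest at 47.3, then the platform gene Lamtor2 at 45.4 and Rraga, a GTPase of the platform, at 37.5 TPM, while Rragd was the lowest at 4.59 TPM. Tmem127 therefore lay close to the middle of that set.

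Nf1 was at 29.8 and 31.4 TPM (30.6 ± 1.18), above 80.2% of detected protein-coding genes. In counts it was second only to Sdha, with 6708 and 6121 reads against 10158 and 9623, but its leading transcript is 11917 bases long and per length it came sixth. The ratio of Nf1 to Sdha was 0.660 and 0.636 in counts and 0.205 and 0.212 in TPM. It was level with Tmem127 in replicate 1 (1.00 times) and 1.21 times as high in replicate 2.

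Nf1-201, which carries the 63-base exon, led with 51.3% and 50.1% of TPM in the first table and 37.5% and 38.8% in the second. Nf1-202, a full coding form that lacks it, held 6.02% and 3.44% in the first and 17.4% and 13.1% in the second. Inclusion of the 63-base exon was 86.3% and 93.8% in the first table and 61.1% and 68.9% in the second. The estimates differed more between the quantifications than between the libraries, and the form with the exon was the larger in all 4. The 30-base exon was carried by Nf1-209 alone, an annotated fragment without its 3′ end that held 12.5% and 15.7% of TPM. Its inclusion was put at 17.0% and 21.3% in the first table and 13.9% and 20.01% in the second. A short noncoding transcript, Nf1-207, held 12.2% and 13.3% of TPM in the first table.

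**Figure D3:**
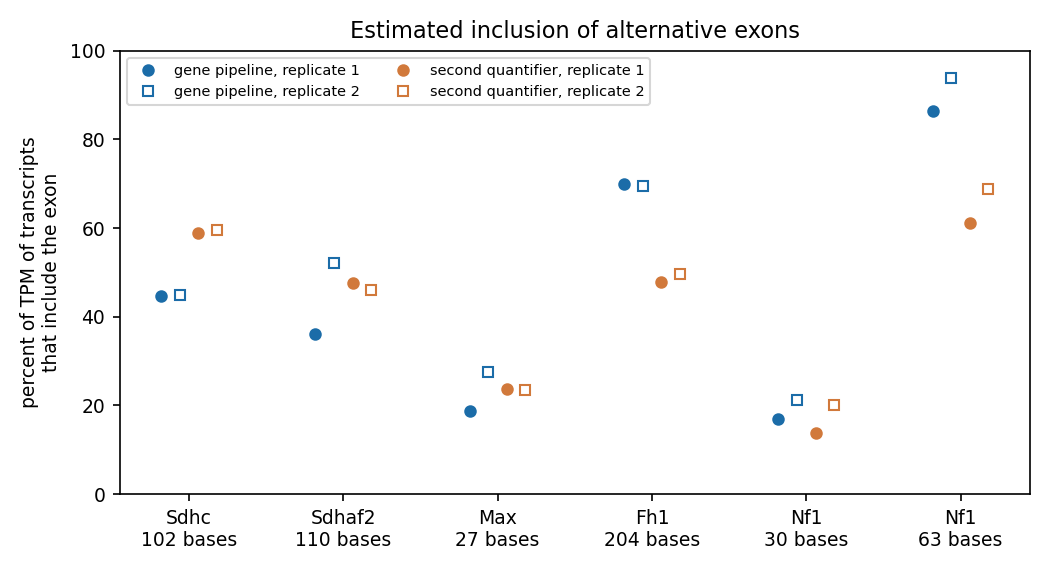
Estimated inclusion, in percent of the TPM of annotated transcripts, of 6 alternative exons in both libraries (filled circles replicate 1, open squares replicate 2) and both quantifications (blue gene pipeline, orange second quantifier). The 27-base exon of Max lies between 18.7% and 27.5%, and the blue and orange points separate for the 63-base exon of Nf1, for Sdhc and for Fh1.

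Other genes of the RAS pathway were all detected, 19 of 19, at a median of 17.4 ± 0.926 TPM, so that Nf1 exceeded the median member. The kinase gene Map2k2 was the highest at 78.2 TPM, followed by Rras at 42.4 and Spred1, which brings neurofibromin to the membrane, at 42.2 TPM. The lowest was Rasa2, another RAS-inactivating protein, at 6.18 TPM. Within the introns of Nf1, on the opposite strand, lie Omg at 2.18 and 2.46 TPM, Evi2a at 1.66 and 2.00 TPM and Evi2b at 1.44 and 1.09 TPM. All 3 were far below their host.

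Of 21 other genes linked to these tumours all were detected, at a median of 40.9 ± 2.08 TPM (SD, n = 2). Idh1 at 202 and Mdh2 at 102 TPM were among the highest. The receptor kinase genes Ret, at 1.31 and 1.30 TPM, and Met, at 1.19 and 1.20 TPM, were the lowest. Both act in these tumours through activation, not loss, and both lay below the lowest of the 10 genes, Vhl.

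**Figure D4:**
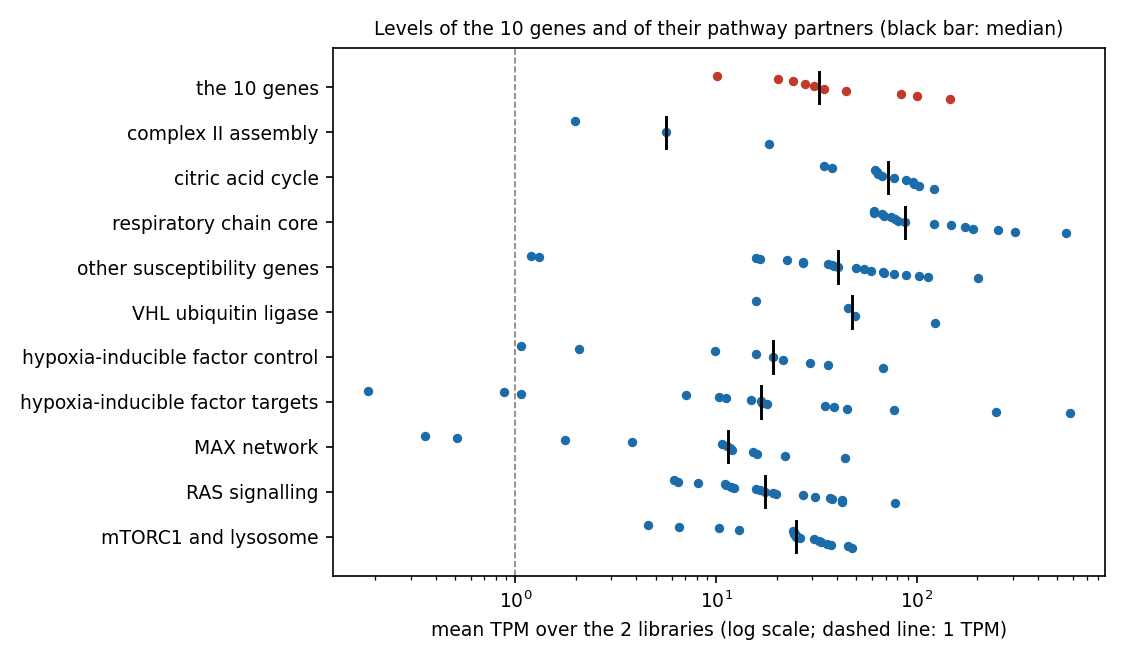
Mean TPM of the 2 libraries on a log axis for the 10 genes (red) and for the genes of each related pathway (blue), with a black bar at the median of each set and a dashed line at 1 TPM. The 10 genes run from 10.1 to 147 TPM, and points below the dashed line occur only in the sets of hypoxia-inducible factor targets and of the MAX network.

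The levels of the 10 genes were close in the libraries. By the log2 ratio of replicate 2 to replicate 1 in scaled counts, none of the 10 differed by 0.32 or more in either direction, against 19.3% of the 16383 genes that averaged 20 counts or more. The 10 genes averaged from 600.5 counts (Vhl) to 9890.5 (Sdha), so the shares over all genes here and below are not matched for counts. Genes with few counts carry a larger counting error, 0.38 in log2 for Mycl with 21 and 40 counts. Of the ratios 5 were above 0 and 5 below, with a median of -0.01, against -0.01 over all genes. The deposited TPM intervals overlapped between the libraries for all 10, while 10.1% of detected genes had intervals that did not overlap.

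At the finer limit of 1.1-fold 3 of the 10 passed, all lower in replicate 2, against 46.3% of all genes in either direction. They were Tmem127, with 3842 and 3071 counts and a log2 ratio of -0.18 ± 0.03 (standard error from counting alone), Sdhc, with 2190 and 1782 counts and -0.16 ± 0.05, and Vhl, with 659 and 542 counts and -0.14 ± 0.08. Sdhb, with 2399 and 2306 counts, had the highest ratio at 0.08 ± 0.04. In TPM the ratio of Sdhb to Sdhc was 0.767 in replicate 1 and 0.914 in replicate 2. Markers of several cell types also differed between these libraries. The adipocyte markers had a median log2 ratio of -0.86. All 7 chromaffin markers were above 0, with a median of 0.18 and a highest ratio of 0.56 for Pnmt. The 5 macrophage markers were mixed, 2 above 0 and 3 below, with 2 of 5 lower past the limit. Most of their sum of 229.8 and 161 TPM was Lyz2, at 146 and 81.4 TPM. The part of these cell types in the differences of the 10 genes was not tested. With 2 libraries of 1 group, likeness of pattern across samples could not be ranked, and no gene is named for it.

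**Figure D5:**
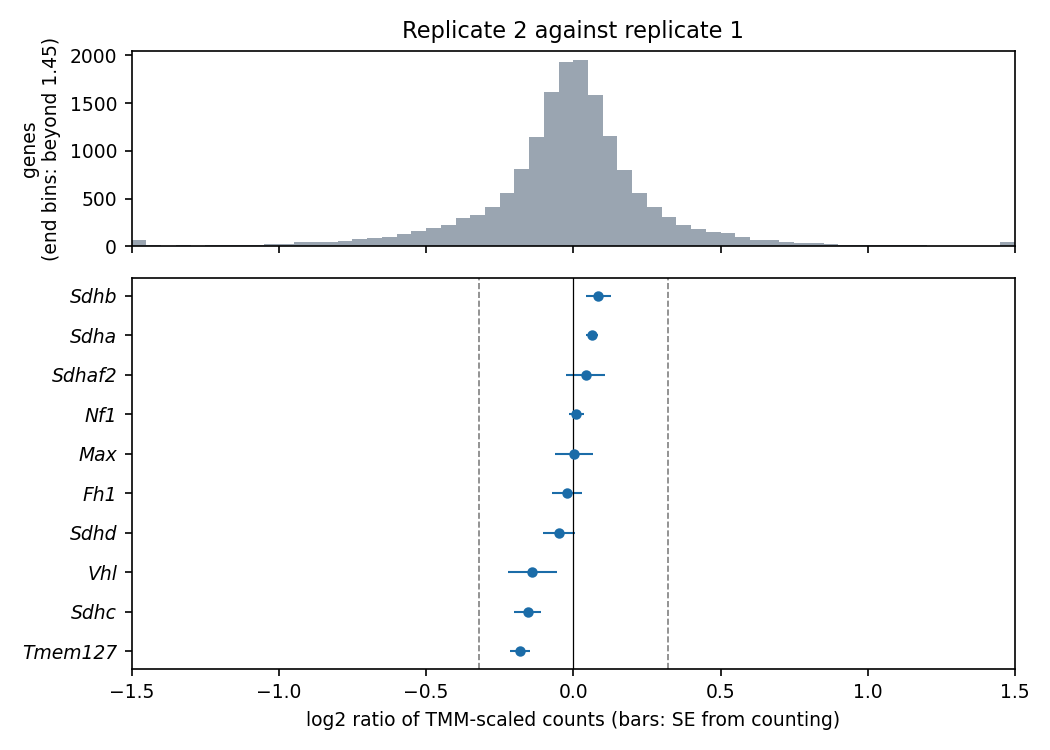
Log2 ratio of replicate 2 to replicate 1 in scaled counts, as a histogram over 16383 genes (top, number of genes per bin, with larger ratios gathered in the end bins) and for each of the 10 genes with its counting standard error (bottom). All 10 lie between the dashed lines at 0.32 and -0.32, from -0.18 for Tmem127 to 0.08 for Sdhb.

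The partner sets differed in how many genes passed the limit that 19.3% of all genes, not matched for counts, passed. Of the complex II assembly, citric acid cycle, respiratory, ligase, RAS and mTORC1 sets none passed 0.32 on the log2 scale in either direction. Of the 3 genes in the introns of Nf1 1 passed, Evi2b, lower at -0.43 ± 0.27 with 72.6 and 48.9 counts. In the MAX network 4 of 11 passed. Mycl was higher in replicate 2 with 21 and 40 counts, and Myc, Mycn and Mlxipl were lower with log2 ratios of -0.33 ± 0.07, -0.66 ± 0.20 and -0.44 ± 0.08. In the hypoxia sets 2 of 9 control genes and 2 of 14 targets passed, near the share over all genes. Hif3a was higher (0.77 ± 0.14), and Pfkfb3 (-0.73 ± 0.06) and Egln3 (-0.48 ± 0.24) were lower. Egln3 belongs to both hypoxia sets and is counted in each.

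Levels from the second table stayed within 1.5-fold of the gene table for all 10 genes, whereas 5.54% of detected genes went past that limit in both libraries. Of the 10 genes 8 were led by the same transcript in both quantifications, the exceptions being Sdhc and Fh1. Sequence shared with other genes was rare in the leading transcripts of the 10. For 7 leading transcripts no stretch of 31 bases occurred in the transcripts of another gene, and the share was 2.22% for Max, 0.652% for Sdhaf2 and 0.537% for Fh1. Neither the count of shared leaders nor that of shared sequence was made over all genes, so neither can be called high or low.

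Features of the start regions, which the choice of genes did not use, were also examined. Of the 10 genes 5 have a protein-coding neighbour on the opposite strand whose 5′ end lies within 1000 bases, against 15.8% of detected protein-coding genes. By the outermost GENCODE ends, the gap is 29 bases between Sdha and Ccdc127, 92 between Tmem127 and Ciao1, and 98 between Sdhd and Timm8b. By the same measure Sdhaf2 and Cpsf7 overlap at their 5′ ends. The RefSeq window of Sdhaf2 used below, chr19:10525160-10525459, stops short of its GENCODE end at 10526142, so that overlap depends on the start taken. Timm8b, which encodes a chaperone for mitochondrial import, was at 47.0 and 44.0 TPM, near Sdhd. Ciao1, which serves cytosolic iron-sulfur assembly, was at 50.2 and 39.3 TPM and so lower in replicate 2, like Tmem127.

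RefSeq promoter windows of build GRCm38.p6, from 250 bases before to 50 bases after the start, were available for 9 of the 10 genes, all but Sdhc. They were rich in G and C, with a median of 62.7% against 52.7% over all 32851 windows, and held a median of 27 CpG pairs against 7. Neither median was taken over the windows of detected genes alone, so neither can be called particular to these genes. On either strand the ETS core CCGGAAG occurred in 5 of the 9, those of Sdhb, Sdhd, Sdhaf2, Tmem127 and Nf1, against 8.86% of all windows and 17.0% of those of detected protein-coding genes. The E-box CACGTG, the sequence that MYC and MAX bind, occurred in 1 of the 9, that of Max itself, against 7.15% of all windows and 9.72% of those of detected protein-coding genes, a share close to 1 in 9. Its inner part ACGTG, also the core of the hypoxia response element, was in those of Sdha, Max and Tmem127 (19.6% of all windows and 24.9% of those of detected protein-coding genes), and the TATA box TATAAA in that of Vhl (13.6% and 6.89%). Also searched were the CCAAT box, found in 3 of the 9 (37.4% and 37.2%), and the NRF1 core GCATGCGC, found in that of Sdhb (2.71% and 5.06%). The ETS core was thus the most frequent in the 9 windows of all the motifs searched. These are matches of letters only.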

How the data were processed

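Per the labels, 300 ng of total RNA per library was depleted of ribosomal RNA and sequenced strand-specifically with ERCC spike-ins. Per the library notes, the authors deposited expected counts, TPM and FPKM per gene from transcriptome alignments (mm10, GENCODE M21), and the same pipeline's transcript tables with expected counts, TPM and the percent of the gene taken by each transcript. The authors also deposited a second transcript table, with estimated counts and TPM computed from the reads themselves. The bounds deposited beside each TPM value, treated as a signal per the file headers, carry no stated level and need not enclose that value. Aligner and quantifier names: not given in the sources used here.

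Expected counts were rounded. Ratios used TMM-scaled totals of annotated genes (edgeR 4.0.16, R 4.3.3) and a prior count of 0.5; their standard errors cover Poisson counting only, and reads are not independent molecules. The common coefficient of variation between the libraries was 8.85% over 17359 genes. Spike-ins took 0.469% and 0.504% of counts and stayed out of totals. A difference past 1.25-fold (0.32 in log2) between libraries was counted. The tables of transcripts and genes were compared after adding 0.1 TPM. The ratio script was tested on simulated data. DESeq2 1.42.0 size factors, other limits, units and each library left out were alternatives. Tables were handled in Python 3.11.15 with pandas 2.3.3.

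The 10 genes were chosen by name with no rule on their values, but they and all lists were chosen with earlier results of these data known. Named are all 10 genes, the 3 highest and the lowest detected gene of each list with those under 1 TPM, leading transcripts and those with at least 10% of their gene; the genes of the hypoxia, MAX and neighbour paragraphs named beyond this were chosen after their values were seen. A few genes that this rule names are not reported here. Of entries sharing a symbol the one with more counts was kept. Sequences are those of the reference, not of the CAST cross.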

Additional observations from a re-analysis of the deposited data

How the results depend on the processing

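All 10 genes stayed detected at 0.5 and 5 TPM, in FPKM, in the second quantifier and with either library left out. The median level of 32.5 ± 0.661 TPM (SD, n = 2) became 88.7 when TPM was rescaled over protein-coding genes only and 31.6 in FPKM, and ran from 32.0 to 33.0 with 1 library left out. The count of genes past the fold between libraries was 0 at the limit used and at 1.5-fold and 3 at 1.1-fold. It stayed 0 with DESeq2 size factors, spike-in totals, unscaled totals, ratios of TPM, posterior mean counts and the second quantifier. Spike-in scaling moved the median log2 ratio of all genes to -0.10, against which the ratios of the 10 genes are to be read. Between quantifiers the count was 0 at 1.5-fold and 2 at a limit of 0.32 in log2, namely Sdhc and Sdhd. No paired analysis was possible because there is 1 group. The depth limits the short transcripts of Vhl, Max and Fh1, whose shares rest on few reads.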
